A study of Homo sapiens with 14 samples.

Results

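Gene levels after 5 h of epidermal growth factor (EGF) were compared with those after 1 h in AsPC-1, an established line of human pancreatic cancer cells. All cells of the comparison were serum-starved, and EGF was given at 50 ng/ml. The comparison covered 10978 of the 23040 genes listed, namely those that span at least 400 bases from start to end and reached 1 RPKM (reads per kilobase of transcript per M mapped reads) in at least 1 of the 2 libraries. The same interval under angiogenin (ANG, 1 µg/ml), a secreted ribonuclease also called RNase 5 that the study's title names as a ligand of the EGF receptor, served as the background for time: AsPC-1 cells at 5 h against 1 h of ANG. The study as a whole held 14 libraries, with Panc-1 cells, a further pancreatic cancer line, treated in the same 7 ways (EGF at 1, 5 and 24 h, ANG at 1, 5 and 24 h, and an untreated mock library whose time the labels do not give). Each group was 1 library of total RNA, so that no comparison within AsPC-1 had a repeat and none was tested. Differences are given as log2(RPKM + 1) at 5 h minus 1 h, and a gene is called higher or lower where it differed by at least 2-fold on that scale, which understates the change of low genes.

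EGF binds its receptor EGFR on epithelial cells and switches on the RAS, RAF, MEK and ERK kinase chain, which phosphorylates transcription factors already in place and so turns on the immediate-early genes within minutes. Their products, among them the factors FOS, EGR1 and NR4A1, are short-lived, and their RNA usually falls again once phosphatases and other delayed genes switch the signal off. Genes for adhesion, matrix remodelling and cell division follow hours later.

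The AsPC-1 libraries held 22.5 M reads at 5 h of EGF, 20.7 M at 1 h of EGF, 21.1 M at 5 h of ANG and 18.5 M under 1 h of ANG, worked out from what a lone read adds to a short gene's RPKM. At these depths 1 RPKM in a transcript of 2 kb stood for 45.0 reads at 5 h and 41.4 reads at 1 h of EGF, and for 42.3 reads at 5 h and 37.0 reads at 1 h of ANG. The share of reads in genes under 400 bases was 5.29% at 5 h of EGF and 12.6% at 1 h of EGF, against 17.2% at 5 h of ANG and 15.5% when ANG was given for 1 h. Of 8 markers of pancreatic ductal epithelium 7 reached 1 RPKM in all 4 libraries, with KRT18 the highest (892 RPKM at 5 h and 888 RPKM at 1 h of EGF) and KRT7 the lowest of the 7 (10.0 and 15.7 RPKM). The other one, MUC1, had 1.07 RPKM at 5 h and 1.75 RPKM at 1 h of EGF and was under 1 RPKM at 1 h of ANG. PTPRC and CD3E of leukocytes, PECAM1 of endothelium and COL1A1 of fibroblasts were at 0.01 RPKM or less in all 4 libraries, while LUM lay between 26.5 and 30.7 RPKM and CD68 between 66.4 and 92.9 RPKM. The mock and 24 h libraries of AsPC-1 stood apart from those of 1 h and 5 h under both ligands in their level of proliferation genes, as given below. Of the 10978 genes, 10582 reached 1 RPKM in both libraries, 174 at 5 h alone and 222 at 1 h alone. Just inside the level limit lay 125 genes whose higher value was 1 to 1.1 RPKM, and just outside it 139 genes at 0.9 to 1 RPKM. HIST4H4 with 412 bases was the shortest gene inside the span limit and HIST1H4C with 390 bases the longest outside it, where 493 further genes reached 1 RPKM.

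Promoters of lower genes are shown here as examples of motifs known from their groups: the CArG box, bound by serum response factor, in an immediate-early gene; the E2F element in genes of DNA replication; and the CHR, an element of genes expressed in late cell cycle. Each run holds the 250 bases before the RefSeq start site in GRCh38.p14, 5′ to 3′ on the gene's own strand, with the matched motif in capitals. In each group the genes with the largest difference whose window holds the motif were taken.
EGR1 (chr5:138465229-138465478, plus strand): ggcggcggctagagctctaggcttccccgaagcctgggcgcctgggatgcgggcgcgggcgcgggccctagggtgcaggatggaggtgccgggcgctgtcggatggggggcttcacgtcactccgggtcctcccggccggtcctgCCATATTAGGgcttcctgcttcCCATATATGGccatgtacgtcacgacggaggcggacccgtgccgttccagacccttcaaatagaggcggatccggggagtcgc
E2F1 (chr20:33686386-33686635, minus strand): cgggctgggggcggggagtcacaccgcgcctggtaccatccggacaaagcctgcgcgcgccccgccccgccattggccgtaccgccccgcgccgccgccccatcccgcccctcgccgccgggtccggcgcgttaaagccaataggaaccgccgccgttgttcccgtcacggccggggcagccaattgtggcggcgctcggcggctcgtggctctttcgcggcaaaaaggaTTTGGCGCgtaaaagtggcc
MCM7 (chr7:100101398-100101647, minus strand): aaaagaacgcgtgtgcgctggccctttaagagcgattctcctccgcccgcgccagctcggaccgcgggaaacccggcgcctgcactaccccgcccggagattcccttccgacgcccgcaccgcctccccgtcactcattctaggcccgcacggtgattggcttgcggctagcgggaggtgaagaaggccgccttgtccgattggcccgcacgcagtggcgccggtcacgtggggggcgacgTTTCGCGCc
PLK1 (chr16:23678639-23678888, plus strand): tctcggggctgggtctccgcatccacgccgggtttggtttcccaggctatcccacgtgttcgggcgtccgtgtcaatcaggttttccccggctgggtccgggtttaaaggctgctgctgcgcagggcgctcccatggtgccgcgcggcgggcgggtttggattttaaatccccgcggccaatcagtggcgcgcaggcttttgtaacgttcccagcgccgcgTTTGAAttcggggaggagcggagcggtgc
MKI67 (chr10:128126424-128126673, minus strand): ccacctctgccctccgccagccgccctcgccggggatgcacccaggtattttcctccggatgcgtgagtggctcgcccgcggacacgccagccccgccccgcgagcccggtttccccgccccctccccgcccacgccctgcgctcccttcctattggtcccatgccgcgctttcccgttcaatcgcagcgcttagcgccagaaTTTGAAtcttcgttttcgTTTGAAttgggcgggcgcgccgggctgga

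The motifs were searched on both strands as TTTNGCGC for E2F, TTTGAA for the CHR, TGANTCA for AP-1, TGACGTCA for the cyclic AMP element CRE, and the CArG box by its usual form, and none of these patterns lies within another. RefSeq windows were at hand for 8838 of the 10978 genes. The CHR stood in 14 of 25 windows of G2/M and mitosis genes (56.0%), against 740 of the 8838 windows of all genes compared (8.37%) and 13.6% of the 27305 windows in the table. E2F stood in 7 of 23 windows of G1/S and DNA replication genes (30.4%), against 2.61% of those of all genes compared. The CArG box stood in 2 of 17 windows of immediate-early genes (11.8%), against 0.98% of all genes compared. The CRE stood in 2 of 17 windows of immediate-early genes (11.8%) and 3 of 25 of G2/M genes, against 3.09% of all genes compared. AP-1 stood in none of the windows of these 3 lists and in 1 of 14 windows of the higher genes (7.14%), against 3.76% of all genes compared. Of the 105 lower genes described below, 82 had a window, of which 19 held the CHR (23.2%) and 12 held E2F (14.6%). EGR1 holds its pair of CArG boxes at -105 to -96 and -83 to -74 from the start, and the CHR of PLK1 and the nearer of the pair in MKI67 lie at the same place, -29 to -24. A match is a run of letters and not a measured binding site.

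After 5 h of EGF, 20 genes were at least 2-fold higher than after 1 h (0.182% of 10978) and 105 were at least 2-fold lower (0.956%). With ANG over the same hours, 2 of the same genes were 2-fold higher (0.0182%) and 1 was 2-fold lower (0.00911%). The higher ones were RNU5D and RNU5E, overlapping entries for U5 small nuclear RNA. They are listed with spans of 245256 and 245257 bases, through which they passed the span limit, so that both are uncertain. The lower one was MTRNR2L9, a nuclear copy of mitochondrial sequence. The differences had a median of 0.02 and an SD across genes of 0.32 with EGF, against a median of -0.05 and an SD of 0.16 with ANG. At a limit of 1.5-fold, 310 genes were higher and 438 lower with EGF, against 14 higher and 25 lower with ANG. NDRG1 marked the upper end with EGF at 1.42 and EGR1 the lower end at -2.38. Across genes the EGF and ANG differences had a Pearson r of 0.24, which describes these 4 libraries only, since genes are not repeats. The genes nearest the 2-fold limit were TM4SF1 at 1.02 inside and PPP1R3D at 0.998 outside on the upper side, and TROAP at -1.0 inside and FANCI at -0.998 outside on the lower side.

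**Figure D1:**
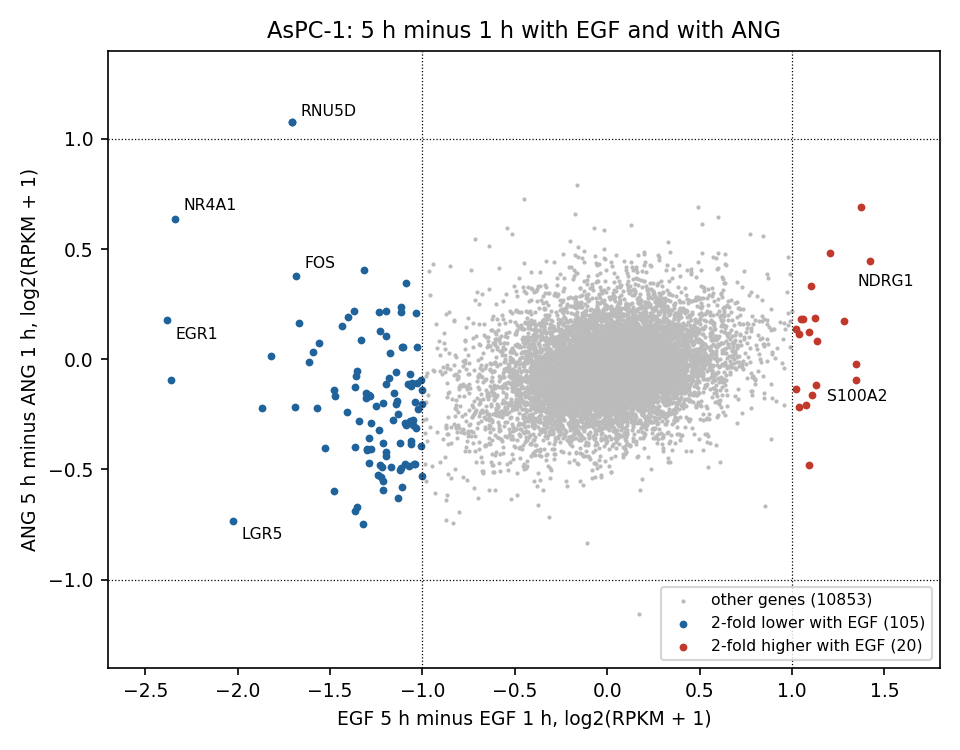
Each point is 1 of 10978 genes in AsPC-1, with the difference between 5 h and 1 h of EGF across and that of ANG upward, both as log2(RPKM + 1), and dotted lines at 2-fold. The cloud is wider across than upward, and the 105 lower genes (blue) and 20 higher genes (red) lie inside the 2-fold lines of ANG, except RNU5D and RNU5E, which are drawn as 1 point.

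Immediate-early genes were among the lowest at 5 h. In a test over both lines, given below, 5 of them passed, but that test uses these same AsPC-1 libraries and is not separate evidence. Of 23 measured genes of the list, 6 were 2-fold lower at 5 h and none was 2-fold higher. Over all genes 0.956% were 2-fold lower and 0.182% higher. The list had a median difference of -0.41 with EGF and 0.18 with ANG. NR4A1, an orphan nuclear receptor, had 11.2 RPKM after 5 h of EGF and 61.0 RPKM after 1 h, against 8.68 and 5.22 RPKM at 5 and 1 h of ANG. EGR1, a zinc finger factor whose promoter is shown above, had 7.33 RPKM at 5 h and 42.4 RPKM at 1 h of EGF, against 4.73 and 4.07 RPKM with ANG. FOS, a partner in AP-1, had 6.65 RPKM at 5 h and 23.6 RPKM at 1 h of EGF, against 6.94 and 5.11 RPKM with ANG. In each of these genes the 1 h EGF library was the highest of the 4, and the 5 h EGF library was within 2-fold of the 5 h ANG library. In hg19 NR4A1 lies at chr12:52445191-52453287, EGR1 at chr5:137801181-137805004 and FOS at chr14:75745481-75748937, all on the plus strand.

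The other lower members of the list behaved alike. FOSB, a relative of FOS, had 1.48 RPKM at 5 h and 7.76 RPKM at 1 h of EGF. CSRNP1, a nuclear protein of the immediate-early class, had 4.13 and 15.3 RPKM. EGR3, a relative of EGR1, had 0.49 and 2.86 RPKM, so that its 5 h value was under 1 RPKM. JUNB, a further AP-1 partner, was just short of 2-fold with 65.2 RPKM at 5 h and 128 RPKM at 1 h.

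Not every member of the list was low at 5 h. JUN had 40.8 RPKM at 5 h and 59.7 RPKM at 1 h of EGF, a difference of -0.54, while with ANG it had 26.8 and 17.4 RPKM, a difference of 0.60. FOSL1, which encodes the AP-1 protein FRA1 and is known as a later member of the family, had 161 RPKM at 5 h and 139 RPKM at 1 h of EGF. MYC, a driver of growth and ribosome production, had 411 RPKM at 5 h and 278 RPKM at 1 h, and KLF6, a zinc finger factor, 79.9 and 48.1 RPKM. With IER5, an immediate-early response gene, 4 of the 23 genes lay above 0, where 52.1% of all genes did. KLF6 was the highest at 0.72.

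**Figure D2:**
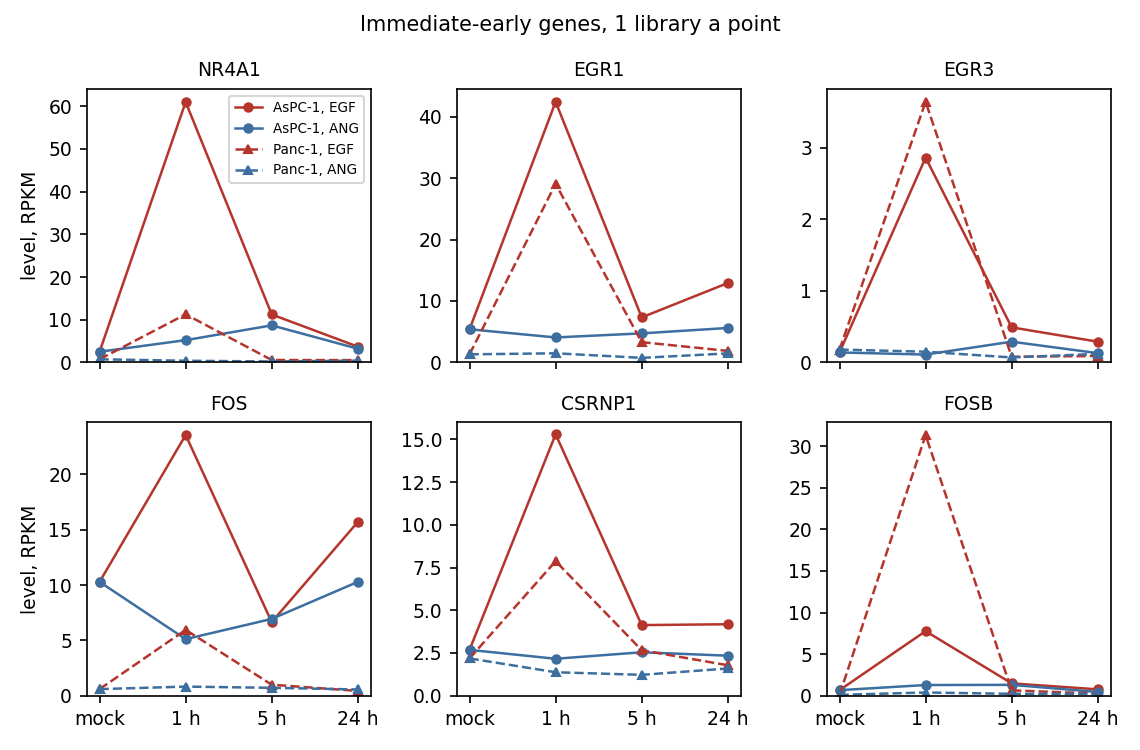
RPKM of 6 immediate-early genes in the mock library and after 1, 5 and 24 h of EGF (red) or ANG (blue) in AsPC-1 (solid) and Panc-1 (dashed), 1 library a point. In all 6 genes the 1 h EGF library is the highest of its line, and the 5 h EGF library is far below it in both lines.

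The contrast was tested with limma over both lines in the 8 libraries of 1 h and 5 h, where 12323 genes were measured and the lines are the only repeat (n = 2). No gene rose and 5 fell at 5 h of EGF (0.0406% of genes; 1337 genes, 10.8%, had an unadjusted p under 0.05), and all 5 were immediate-early genes. The p-values measure the spread between these libraries alone. NR4A1 fell by 2.65 ± 0.20 (SE; limma adjusted p = 0.00201), with a difference of -2.34 in AsPC-1 and -2.97 in Panc-1. FOS fell by 1.74 ± 0.14 (limma adjusted p = 0.00201), with -1.68 in AsPC-1 and -1.80 in Panc-1. EGR1 fell by 2.59 ± 0.22 (limma adjusted p = 0.00335), CSRNP1 by 1.47 ± 0.14 (0.00456) and EGR3 by 1.74 ± 0.17 (0.00527), each lower in both lines. FOSB missed the threshold (limma adjusted p = 0.197), with -1.82 in AsPC-1 and -4.30 in Panc-1. None of the 5 passed when all 14 libraries, genes under 400 bases or genes of any level were let into the fit, and CSRNP1 alone passed at a pseudocount of 0.1.

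Single libraries also set how many genes were called. The fit called 107 genes lower and 26 higher without the Panc-1 library of 1 h of EGF, 78 lower and 61 higher without that of 5 h, and 16 lower and 1 higher without the AsPC-1 library of 1 h of EGF. Without the AsPC-1 library of 5 h of EGF it called 4 lower and 2 higher, and EGR1 and CSRNP1 were not among them. NR4A1 and FOS passed in each of the 8 fits that left out 1 library.

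Whether the change over time depended on the ligand was tested in the same fit. The change of NR4A1 with EGF minus that with ANG was -2.88 ± 0.28 (SE; limma adjusted p = 0.0203), and that of FOS was -1.89 ± 0.19 (limma adjusted p = 0.0203). They were the only genes called (0.0162%; 379 genes, 3.08%, had an unadjusted p under 0.05). EGR1, CSRNP1 and EGR3 had differences of -2.43, -1.51 and -1.80 with a limma adjusted p of 0.0725 each. NR4A1 passed in 6 of 15 alternative fits and FOS in 5 of 15. The number of genes called lower was 0 without either AsPC-1 library of ANG, the AsPC-1 library of 5 h of EGF, the Panc-1 library of 5 h of EGF or the Panc-1 library of 5 h of ANG. It was 1 without the Panc-1 library of 1 h of ANG, 4 without that of 1 h of EGF, and 7, with 1 gene higher, without the AsPC-1 library of 1 h of EGF.

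Feedback regulators of the pathway lay on both sides of 0. None of 19 measured MAPK feedback genes differed by 2-fold on the log2(RPKM + 1) scale, 10 lay above 0 and 9 below, and their median was 0.28 with EGF and 0.02 with ANG. SPRY1, a brake on receptor signalling, was the highest with 11.7 RPKM at 5 h and 5.59 RPKM at 1 h of EGF, a difference of 0.95. DUSP6, the phosphatase of cytoplasmic ERK, had 94.5 and 72.9 RPKM. DUSP1, an immediate-early phosphatase, had 64.2 RPKM at 5 h and 101 RPKM at 1 h, a difference of -0.64, and 29.9 and 20.7 RPKM with ANG. ETV5, a transcription factor downstream of ERK, was the lowest with 1.60 RPKM at 5 h and 3.75 RPKM at 1 h. EGFR itself had 84.5 RPKM at 5 h and 91.2 RPKM at 1 h of EGF, and 87.1 and 96.0 RPKM with ANG.

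Among the receptor's own family and ligands, 1 of 6 measured genes was 2-fold lower, where 0.956% of all genes were. HBEGF, a ligand of EGFR shed from the cell surface, had 7.70 RPKM at 5 h and 16.7 RPKM at 1 h of EGF, against 4.96 and 4.74 RPKM with ANG. TGFA, a further ligand, had 242 RPKM at 5 h and 141 RPKM at 1 h, a difference of 0.78, and EREG 13.4 and 11.4 RPKM. The co-receptors ERBB2 and ERBB3 had differences of -0.54 and -0.49.

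Proliferation genes made up the largest group of lower genes. Of 26 measured G1/S and DNA replication genes 13 were 2-fold lower and all 26 lay below 0, with a median of -0.95 with EGF and -0.45 with ANG. Of 31 measured G2/M and mitosis genes 15 were 2-fold lower and 30 lay below 0, with a median of -0.98 with EGF and -0.15 with ANG. With ANG all 26 G1/S and 30 of the 31 G2/M genes lay below 0 as well, where 63.5% of all genes did. Over all 10978 genes 0.956% were 2-fold lower and 47.6% lay below 0 with EGF. The medians over all genes were 0.02 with EGF and -0.05 with ANG. None of the members of either list was 2-fold apart with ANG. In limma over both lines no gene of either list passed: PLK1, the gene with the largest difference, had an adjusted p of 0.237 there. PLK1 differed by -1.69 in AsPC-1 and by -0.35 in Panc-1. Members of both lists passed only without the Panc-1 library of 1 h or of 5 h of EGF. That time of EGF then has a lone AsPC-1 library and no repeat. Without either AsPC-1 library of EGF no member passed.

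Single genes show the range. PLK1, a kinase of mitotic entry, had 5.75 RPKM at 5 h and 20.8 RPKM at 1 h of EGF, against 11.2 and 13.2 RPKM with ANG. CCNB1, the mitotic cyclin, had 11.1 and 34.0 RPKM, against 17.3 and 23.2 RPKM with ANG. AURKB, a kinase of chromosome segregation, had 2.45 and 9.25 RPKM, against 4.60 and 5.52 RPKM with ANG. In these mitotic genes the 1 h EGF library was above both ANG libraries and the 5 h EGF library below both.

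For replication genes the ANG libraries themselves differed in the same direction. MCM5, a subunit of the replicative helicase, had 5.42 RPKM at 5 h and 16.9 RPKM at 1 h of EGF, against 9.0 and 14.1 RPKM with ANG, so that the difference was -1.48 with EGF and -0.60 with ANG. E2F1, the transcription factor that drives entry into S phase, had 2.97 and 9.22 RPKM, against 4.71 and 8.19 RPKM with ANG. MCM10, a replication initiation factor, had 1.97 and 6.61 RPKM, against 2.88 and 5.17 RPKM. PCNA, the sliding clamp, had 31.0 and 65.7 RPKM, against 44.7 and 58.5 RPKM.

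The ligands differed in the level of these lists at 1 h already. The median level of the G2/M list was 2.53 RPKM at 5 h and 6.98 RPKM at 1 h of EGF, against 3.99 RPKM at 5 h and 4.94 RPKM at 1 h of ANG. That of the G1/S list was 5.53 RPKM at 5 h and 10.1 RPKM at 1 h of EGF, against 5.88 and 7.91 RPKM with ANG. Thus the 1 h EGF library stood above the 1 h ANG library in both lists, and the 5 h libraries of the ligands were closer to each other for G1/S genes. Both times stood far below the mock library, whose medians were 45.3 RPKM for G2/M and 27.1 RPKM for G1/S, and below the 24 h library of EGF with 33.4 and 23.9 RPKM. In bulk RNA, fewer dividing cells and less of these RNAs in each cell cannot be told apart.

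**Figure D3:**
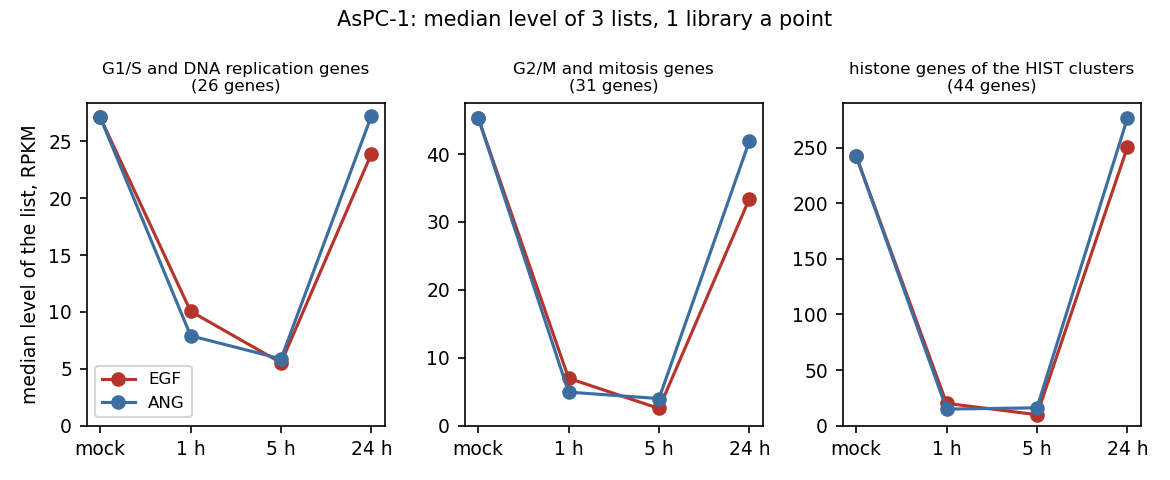
Median RPKM of the measured genes of 3 lists in the AsPC-1 mock library and after 1, 5 and 24 h of EGF (red) or ANG (blue), 1 library a point. Mock and 24 h lie far above 1 h and 5 h under both ligands, and EGF is above ANG at 1 h in each list.

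In Panc-1 these lists differed less between the times, though the lines were not tested against each other. The Panc-1 G2/M list had a median level of 46.0 RPKM at 5 h and 53.9 RPKM at 1 h of EGF, and the median difference was -0.25, with no gene 2-fold apart. The Panc-1 G1/S list had a median difference of -0.19. Levels at 1 h and 5 h of EGF in Panc-1 were above its mock library, which had 16.5 RPKM for G2/M, whereas in AsPC-1 they were below it.

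Histone genes of the HIST clusters, whose RNAs are made in S phase and end without a poly(A) tail, were lower as well. Of 44 measured genes 18 were 2-fold lower and 43 lay below 0, with a median of -0.87 with EGF, 0.01 with ANG and 0.23 for EGF in Panc-1. Over all genes 0.956% were 2-fold lower and 47.6% lay below 0 with EGF. With ANG 22 of the 44 histone genes lay below 0, where 63.5% of all genes did. This list was drawn up after the values were seen. HIST1H3F had 11.8 RPKM at 5 h and 64.7 RPKM at 1 h of EGF, against 35.0 and 37.5 RPKM with ANG. HIST1H1B, a linker histone, had 10.8 and 33.6 RPKM, against 19.0 and 18.0 RPKM with ANG. Near-identical copies make the value of single histone genes uncertain. The share of reads in genes under 400 bases was lower at 5 h than at 1 h of EGF (5.29% and 12.6%), and its part in the histone values was not tested.

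Together the cell cycle lists held 28 of the 105 lower genes, and cell cycle or histone lists 46. These lists had 26 G1/S, 31 G2/M and 44 histone genes among the 10978 compared. A further 45 lower genes were in none of the lists. Among them, chosen after the values were seen, KIFC1, a mitotic motor, had 1.99 RPKM at 5 h and 6.95 RPKM at 1 h of EGF, DTL, a substrate receptor of a replication-linked ubiquitin ligase, 3.55 and 10.4 RPKM, and MYBL2, a transcription factor of late cell cycle genes, 5.18 and 14.2 RPKM. The mitotic brake kinase WEE1 had 2.22 and 6.47 RPKM and was 2-fold lower in Panc-1 also (-1.08).

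Lower genes outside proliferation had varied roles. LGR5, the R-spondin receptor and a stem cell marker, had 1.23 RPKM at 5 h and 8.07 RPKM at 1 h of EGF, against 4.92 and 8.83 RPKM with ANG, a difference of -2.02 with EGF and -0.73 with ANG. ELF3, an epithelial transcription factor, had 32.8 and 81.7 RPKM, against 47.8 and 53.6 RPKM with ANG, and was the only 2-fold gene of 20 epithelial adhesion and identity genes, of which 9 lay above 0 and 11 below, with a median of -0.04. SOCS3, a feedback inhibitor of cytokine receptors, had 2.20 and 7.24 RPKM, against 2.61 and 2.94 RPKM with ANG. SIK1, a salt-inducible kinase, had 12.1 and 27.3 RPKM, against 11.03 and 10.6 RPKM with ANG. For ELF3, SOCS3 and SIK1, as for HBEGF, the 1 h EGF library was above both ANG libraries.

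A list of small RNA host genes, drawn up after the values were seen, held 4 lower entries among 15 measured, where 0.956% of all genes were lower. Its median was -0.02 with EGF, with 7 entries above 0 and 8 below. SCARNA2, a small Cajal body RNA outside the list, was 2-fold lower too. It had 608 RPKM at 5 h and 1320 RPKM at 1 h of EGF, against 1666 and 1412 RPKM with ANG. Its difference was -1.12 in AsPC-1 and 0.998 in Panc-1. RNU5D, uncertain for its listed span of 245256 bases, had 5.62 RPKM at 5 h and 20.6 RPKM at 1 h of EGF, against 20.9 and 9.38 RPKM with ANG. SNHG7, a host of small nucleolar RNAs, had 77.5 and 236 RPKM, against 302 and 294 RPKM with ANG. TMEM107, whose locus also holds the U8 small nucleolar RNA, had 11.8 and 31.0 RPKM, against 54.0 and 40.5 RPKM with ANG. In Panc-1 the share of reads in genes under 400 bases was 11.2% at 5 h and 5.11% at 1 h of EGF, the reverse of AsPC-1, and these entries were higher at 5 h there: 1.57 for RNU5D, 1.08 for SNHG7 and 1.30 for TMEM107. The part of that share in these values was not tested.

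The 20 higher genes included genes of stress response, adhesion and signalling. NDRG1, a stress- and hypoxia-responsive gene, had 196 RPKM at 5 h and 72.7 RPKM at 1 h of EGF, against 83.6 and 61.0 RPKM with ANG. S100A2, a calcium-binding protein, had 116 and 44.8 RPKM, against 47.4 and 50.6 RPKM with ANG. In both genes the 5 h EGF library was the highest of the 4.

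Of 19 integrin, laminin-332 and related genes 2 were 2-fold higher, S100A2 and ITGA5, where 0.182% of all genes were. None was 2-fold lower, and 15 lay above 0, where 52.1% of all genes did. The median of the list was 0.30 with EGF and 0.06 with ANG. ITGA5, a subunit of the fibronectin receptor, had 20.8 RPKM at 5 h and 9.21 RPKM at 1 h of EGF, against 8.57 and 7.78 RPKM with ANG. ITGA2, of the collagen receptor, had 222 and 113 RPKM, just short of 2-fold. ITGB4, which binds laminin-332 in hemidesmosomes, had 272 and 324 RPKM. DSC2, a desmosomal cadherin, had 83.5 and 37.6 RPKM, against 41.3 and 44.9 RPKM with ANG, and DSG3, a further desmosomal cadherin, 84.3 and 42.9 RPKM. In a desmosome list drawn up after the values were seen, 1 of 8 measured genes was 2-fold higher. Of these 8 genes 6 lay above 0 and 2 below, with a median of 0.16 with EGF and -0.05 with ANG.

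Among proteases and their inhibitors 1 of 12 genes was 2-fold higher, where 0.182% of all genes were. The list's median was 0.17 with EGF and 0.07 with ANG. PLAT, tissue plasminogen activator, had 47.8 RPKM at 5 h and 27.5 RPKM at 1 h of EGF, and PLAU, urokinase, 131 and 89.4 RPKM. PLAUR, the urokinase receptor, had 57.1 and 79.4 RPKM. Of the list 8 members lay above 0 and 4 below, where 52.1% of all genes lay above 0.

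Secreted and signalling genes were also among the 20. BMP6, a ligand of the bone morphogenetic protein family, had 29.7 RPKM at 5 h and 13.0 RPKM at 1 h of EGF, against 15.4 and 14.5 RPKM with ANG. In Panc-1 it had 23.1 and 13.6 RPKM at 5 and 1 h of EGF, and in limma over both lines its difference of 0.93 ± 0.12 missed the threshold (adjusted p = 0.0586), though it passed when libraries were centred on their median. SOCS1, which inhibits JAK kinases, had 9.57 and 3.58 RPKM, opposite to SOCS3. AXIN2, a feedback gene of WNT signalling, had 6.79 and 2.62 RPKM, but 7.34 and 8.33 RPKM with ANG, so that the 1 h EGF library was the lowest of the 4. CEACAM1, a cell adhesion molecule, had 231 and 111 RPKM, HAS2, a hyaluronan synthase, 26.0 and 12.2 RPKM, and PHLDA3, an AKT inhibitor known as a p53 target, 37.9 and 17.1 RPKM.

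Several higher entries have limits of their own. GNG10 (20.3 and 8.76 RPKM) and DNAJC25-GNG10 (17.1 and 7.68 RPKM) overlap, and how reads in the overlap were counted is not given in the sources used here, so that both are uncertain. RPS28 (41.6 and 16.5 RPKM), a ribosomal protein with many copies in the genome, and BCYRN1 (38.9 and 14.7 RPKM), a short RNA gene listed with a span of 518928 bases, are uncertain too. SUMO4 and CD79A were under 1 RPKM at 1 h and passed the level limit through the 5 h library alone, as did 10 of the 105 lower genes through the 1 h library alone.

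**Figure D4:**
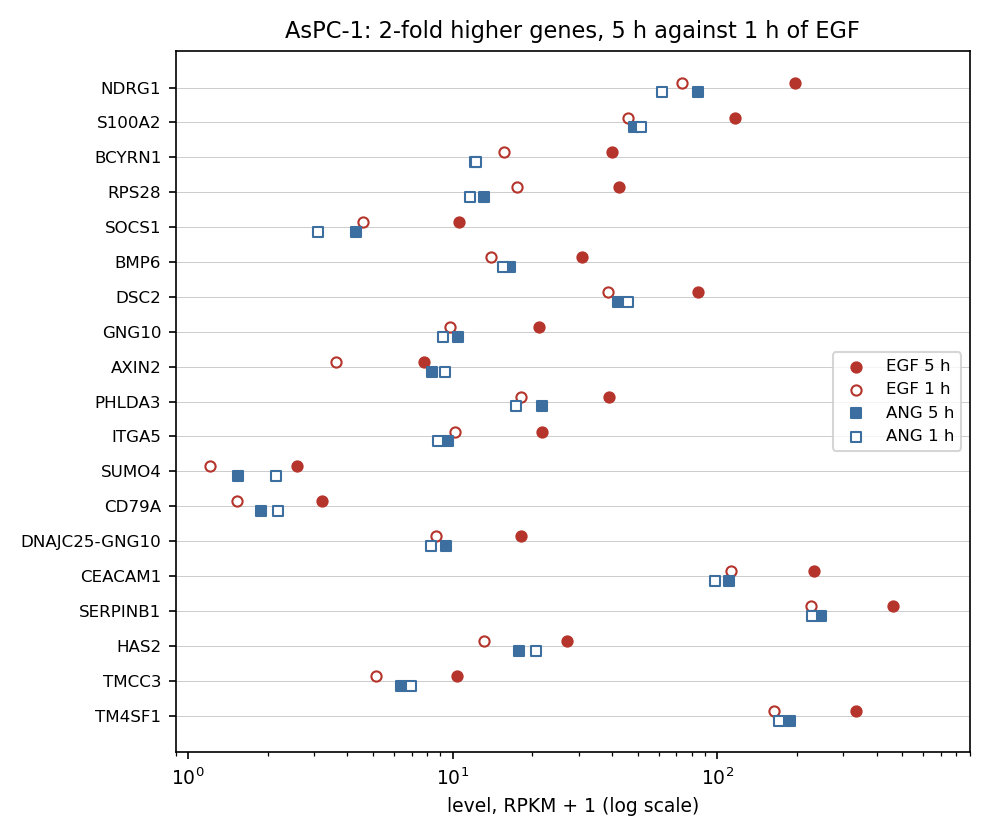
RPKM + 1, on a log scale, of 19 of the 20 genes that were 2-fold higher at 5 h than at 1 h of EGF in AsPC-1, ordered by that difference, with EGF in red circles and ANG in blue squares (filled 5 h, open 1 h). Filled red points lie right of the other 3 in every gene drawn except AXIN2, whose ANG libraries are near or above its 5 h EGF library.

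Most other lists showed no 2-fold gene and a median near that of all genes. Cholesterol synthesis genes had a median of -0.04 over 24 genes, with HMGCS1, an early enzyme of the pathway, at 17.4 RPKM at 5 h and 17.5 RPKM at 1 h of EGF. Ribosome biogenesis genes had a median of -0.004 over 36 genes, interferon-stimulated genes -0.005 over 23 and heat shock chaperones -0.03 over 15. Kruppel-like factors had a median of -0.44 over 10 genes, with 8 below 0, where 47.6% of all genes were. Among NRF2 antioxidant genes TXNRD1, thioredoxin reductase, was the highest with 455 and 231 RPKM, against 344 and 249 RPKM with ANG. Of the 17 genes 9 lay above 0, where 52.1% of all genes did. Of 8 measured D cyclins, CDK4/6 and CDK inhibitors 3 lay above 0 and 5 below, where 47.6% of all genes lay below. Their median was -0.33 with EGF and -0.09 with ANG. Of those above 0, CDKN1A, the CDK inhibitor p21, had 156 and 103 RPKM, against 57.3 and 40.8 RPKM with ANG. CCND1, cyclin D1, had 266 and 233 RPKM, against 238 and 234 RPKM with ANG. Below 0 lay CDK6 at -0.59 and CCND3 at -0.52.

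**Figure D5:**
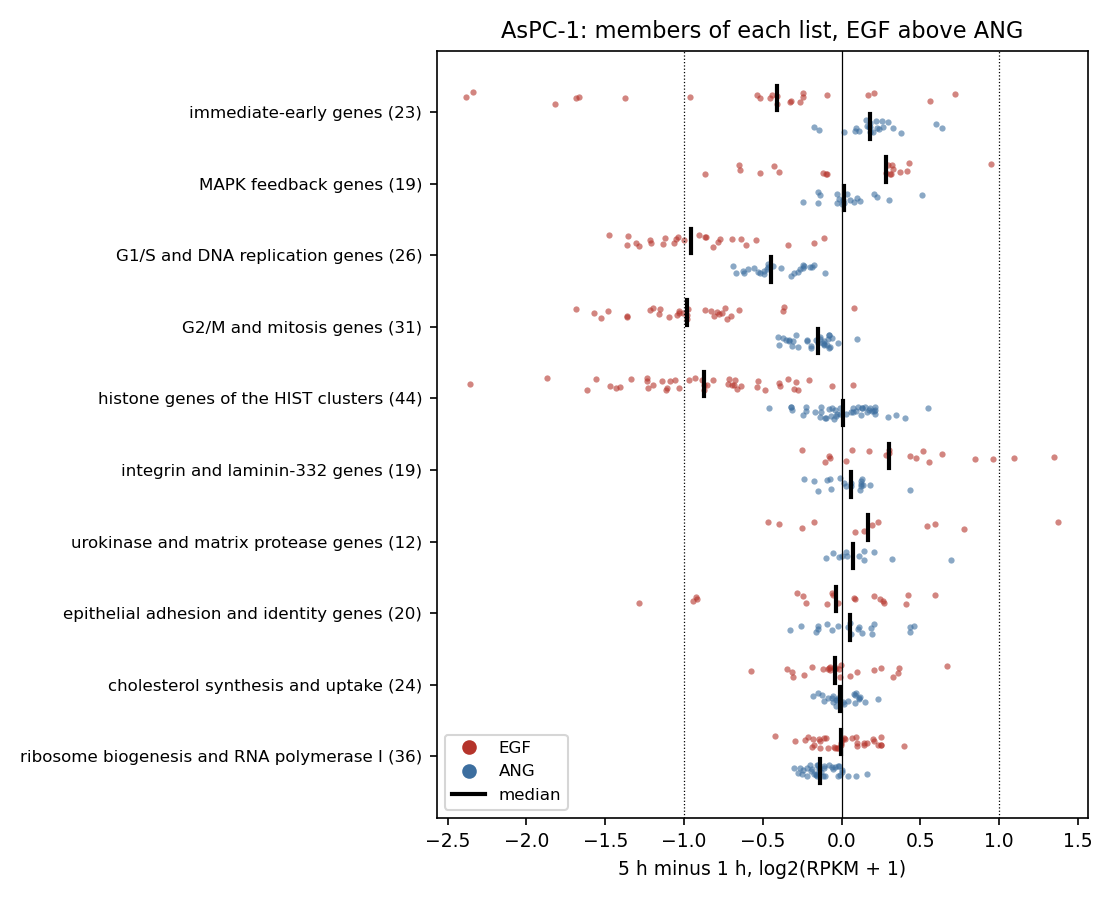
Difference between 5 h and 1 h, as log2(RPKM + 1), of each measured member of 10 lists in AsPC-1, EGF (red) above ANG (blue) in each row, with the median as a black bar and dotted lines at 2-fold. With EGF all but 1 member each of the G2/M and histone lists and all G1/S members lie left of 0. With ANG all 26 G1/S, 30 of 31 G2/M and 22 of 44 histone members lie left of 0. Of 19 integrin, laminin-332 and related members 15 lie to the right with EGF. ANG members of the lists drawn stay within 2-fold.

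The other AsPC-1 libraries give the context of these values. Because the genes were chosen for a low or high value at 5 h of EGF, the place of that library is in part fixed by the choice, and the counts are a description only. It was the lowest of the 7 AsPC-1 libraries for 96 of the 105 lower genes (21.2% of all genes) and the highest for 18 of the 20 higher genes (24.3% of all genes). The median level of the 105 was 38.9 RPKM in mock, 10.4 RPKM at 1 h, 4.13 RPKM at 5 h and 28.5 RPKM at 24 h of EGF, and 100 of them were higher at 24 h than at 5 h (48.2% of all genes). The median level of the 20 was 8.37 RPKM in mock, 13.8 RPKM at 1 h, 33.8 RPKM at 5 h and 9.29 RPKM at 24 h, and all 20 were lower at 24 h than at 5 h (51.7% of all genes). With ANG, 79 of the 105 lay below 0 (median -0.20), where 63.5% of all genes did, and 12 of the 20 lay above 0, where 36.0% of all genes did.

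The same EGF interval in Panc-1 gave 13 genes 2-fold higher (0.112% of its 11580 genes) and 28 lower (0.242%). Among 10168 genes measured in both lines, 7 were 2-fold lower in both, which is 7.45% of the 94 lower genes of AsPC-1 and 38.9% of the 18 of Panc-1. They were CSRNP1, EGR1, EGR3, FOS, FOSB and NR4A1, all immediate-early genes, and WEE1. None of the 17 higher genes of AsPC-1 was among the 9 of Panc-1. Of the 105 lower genes 71 lay below 0 in Panc-1, where 73.8% of all genes did. Across genes the differences of the 2 lines had a Pearson r of 0.09. The difference between the lines was not tested, as each line had 1 library per time and ligand.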

How the data were processed

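RNA was sequenced in 14 libraries, 1 per group, and groups were taken from the labels. The deposited files list log2 RPKM per gene, per the file headers. Per the submitters' processing notes the build is hg19. Aligner, counter, annotation and strand use: not given in the sources used here. RPKM was recovered from the log2 values, and differences were taken on log2(RPKM + 1) for genes spanning at least 400 bases with at least 1 RPKM in either library. RPKM was listed in steps of 0.01, on which 95.8% of low values (under 5 RPKM) fell to within 0.1 of a step. Depth came from the value of 1 read in genes of at most 150 bases, where all low values, of a few reads each, were whole multiples within 0.1. Depth was picked to make that share high, so that the share does not check it. Counts were not rebuilt, and no count model was used.

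Both lines were tested with limma 3.58.1 (R 4.3.3, trend of variance, Benjamini-Hochberg, threshold 0.05, two-sided) on the 8 libraries of 1 h and 5 h, with line as a covariate, over genes that reached 1 RPKM in 2 or more of them. The procedure was tested on simulated data. Nothing says whether libraries came from separate cultures. Alternatives changed the pseudocount, the filters, the scaling and the libraries. Tables were handled with Python 3.11.15, numpy 2.4.6 and pandas 2.3.3, and figures drawn with matplotlib 3.10.9.

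Members and lists were chosen with earlier results of these data known, and the histone, SOCS, desmosome, WNT and small RNA host lists after the values were seen. The text names the 15 highest and 15 lowest differences, and the 10 highest and 10 lowest values of the EGF difference minus the ANG difference. It also names up to 5 genes each way past each limma test, up to 4 members of each list and 12 fixed genes. Unnamed loci and non-coding RNAs were skipped. Some genes that the rule takes are not reported here. BCYRN1, DSG3, DTL, EREG, IER5, ITGB4, JUNB, KIFC1, MCM7, MKI67, MTRNR2L9, MYBL2, PCNA, PLAUR, RNU5D, RNU5E, SCARNA2, SIK1, SNHG7, SOCS3, WEE1, the genes at the edges of the limits and the cell type markers were named outside this rule, after their values were seen.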

Additional observations from a re-analysis of the deposited data

Results flagged for a closer look

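The change over time differed between the ligands in the limma fit over both lines for 2 genes: it was lower with EGF than with ANG by a log2 difference of -1.89 for FOS and -2.88 for NR4A1, and both lines had a lower value with EGF at 5 h than at 1 h.

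AsPC-1 and Panc-1 moved in opposite directions by at least 2-fold between 5 h and 1 h of EGF for 4 entries. The differences were -1.71 in AsPC-1 and 1.57 in Panc-1 for RNU5D, -1.70 and 1.57 for RNU5E, -1.59 and 1.08 for SNHG7, and -1.32 and 1.30 for TMEM107, with AsPC-1 first in each pair. The difference between the lines was not tested, since each line had 1 library per time. RNU5D and RNU5E overlap and are listed with spans of 245256 and 245257 bases, so that both are uncertain. Under EGF, genes under 400 bases took 5.29% of AsPC-1 reads at 5 h and 12.6% at 1 h, but 11.2% of Panc-1 reads at 5 h and 5.11% at 1 h. The part of that share in these values was not tested.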

How the results depend on the processing

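The genes called by limma in the main fit kept their direction in every alternative that measured them. The median difference over all genes did not keep its sign: it was 0.016 in the main setting and -0.031 with upper quartile scaling. The numbers of genes 2-fold higher and lower at 5 h of EGF were 71 and 216 with a pseudocount of 0.1 and 90 and 245 with 0.01, as the smaller pseudocount damps low genes less, and the 20 and 105 genes of the main setting were among them. Without the span limit 355 genes were lower (30 higher), since that setting adds genes under 400 bases. The share of higher genes among those 2-fold apart was 16.0% in the main setting, and 24.7% and 26.9% at pseudocounts of 0.1 and 0.01. It was 7.79% without the span limit and 11.3% with upper quartile scaling. With 5 RPKM as the limit, with no level limit, and with either scaling, the counts stayed within 1.5 times (15 to 20 higher and 88 to 118 lower).

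The limma test of EGF at 5 h against 1 h called 5 genes lower and 0 higher. It called 1 lower at a pseudocount of 0.1, 0 lower without the level limit, without the span limit or with all 14 libraries, and 1 higher (BMP6) when libraries were centred on their median, and the cause was not tested. Leaving out 1 library at a time gave 4 to 107 lower and 0 to 61 higher. The test of EGF against ANG over time called 2 genes lower, but 0 at a pseudocount of 0.1, without the level limit, without the span limit or with all 14 libraries, and 0 to 7 lower and 0 to 1 higher when a library was left out. Where that leaves 1 line with the contrast, its lone libraries are assumed to vary like the others. Beyond line as a covariate, no pairing of libraries was possible, because the labels give no replicate numbers and each group is 1 library.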
